A study of Homo sapiens with 6 samples.

Results

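The core spliceosome set comprised 45 genes, each found by its symbol in 1 row of the deposited count table, out of 60835 distinct gene names in all. They lie on 17 chromosomes, 8 of them on chromosome 19, and the table's own annotation puts 40 in the spliceosome pathway. The 45 genes encode protein components of the small nuclear ribonucleoproteins (snRNPs) U1, U2, U4, U5 and U6 and of the Prp19 complex. They also encode SF1, U2AF and DEAH-box helicases that drive the splicing cycle. The set is a part of the spliceosome, and other proteins of these complexes lie outside it. HEY, a human ovarian cancer cell line in long use, carried either a CCNL2-targeting siRNA (siCCNL2, 3 libraries) or a control siRNA (siNC, 3 libraries), with no other genotype or drug in the labels. The protocol states 48 h with the CCNL2 siRNA and describes all 6 libraries alike, so the time of the siNC libraries is taken to be the same. Nothing in the labels states whether replicates came from independent cultures. The p-values reflect the spread among these 6 libraries alone, and that spread may be technical.

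The spliceosome removes introns from precursor messenger RNA. U1 recognises the 5′ splice site, SF1 and U2AF mark the branch point and the 3′ splice site, and U2 with the SF3a and SF3b complexes then pairs with the branch site. The U4/U6.U5 tri-snRNP joins, U4 is unwound from U6, and the Prp19 complex stabilises the catalytic core. Rings of Sm proteins hold U1, U2, U4 and U5 RNA and a ring of LSm proteins holds the U6 RNA. CCNL2 encodes cyclin L2, a nuclear cyclin that partners CDK11 kinases and localises to the nuclear speckles in which splicing factors are stored.

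Total counts per library were 13596286 to 18095529, of which the 45 genes held 0.629% to 0.635% in siCCNL2 and 0.633% to 0.636% in siNC. Of the deposited score, which is scaled by gene length, they held 0.671% to 0.676% in siCCNL2 and 0.659% to 0.667% in siNC. The direction of the set's share thus depended on the measure. CCNL2, the siRNA target, had 203, 182 and 186 CPM (read counts scaled to library size with TMM factors) in siCCNL2 against 261, 267 and 246 CPM in siNC, a fall of 26.3% with no overlap between the groups (log2 fold change -0.44, SE 0.044; edgeR adjusted p = 2.15e-08 from the quasi-likelihood test used throughout). With 3 against 3 libraries the smallest exact two-sided permutation p is 0.1, and it was 0.1 for CCNL2. The cells expressed the keratins KRT7, KRT8 and KRT18, the Müllerian factor PAX8 and the mesenchymal VIM, while the epithelial genes CDH1 and MUC16 were at or near 0. The summed length-scaled score of the 9 epithelial markers was 2261 to 2352 in siCCNL2 and 3032 to 3078 in siNC, and its part in the results on splicing genes was not tested. Most of that sum was KRT7, KRT8 and KRT18, with mean scores of 935, 903 and 378 in siCCNL2 against 1416, 1072 and 445 in siNC. KRT19, PAX8 and WT1 also had lower means in siCCNL2, whereas EPCAM had a higher one (5.38 against 3.65). The 8 markers of blood, endothelial and other cells summed to 1.46 to 2.29 in siCCNL2 and 2.33 to 3.73 in siNC, with CD68 at 0 in every library.

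Spliceosome genes moved little and in both directions. Of the 45 genes, all of which passed the filter on low counts, 8 rose, 7 fell and 30 did not pass the test, where a call is an adjusted p under 0.05 over all 15346 tested genes. That is 33.3% of the set, beside 33.6% of all tested genes, or 17.2% higher and 16.5% lower over all of them, so the share called in the set was near the background. The median log2 fold change of the 45 genes was 0.04 (0.00 over all tested genes), and the median absolute value was 0.12 (0.19 over all tested genes). A log2 change beyond 0.25 in either direction was seen in 7 of the 45 genes, or 15.6%, and in 39.8% of tested genes. The set was counted more deeply, with a median CPM of 90.8 against 19.1 over all tested genes. Its median standard error was 0.048 against 0.093. Larger errors widen absolute fold changes and make a call harder. The sizes of change and the shares called were therefore not compared at like depth. Among called genes of the set the changes ran from a 19.7% fall in SNRNP200 to a 25.6% rise in PRPF19. The groups did not overlap in CPM for 22 of the 45 genes (43.9% of tested genes), 14 with all siCCNL2 libraries above (22.1% of tested genes) and 8 with all below (21.8% of tested genes). Without siCCNL2 replicate 1 the counts were 12 higher and 3 lower (33.3% called, beside 30.2% of the genes then tested). Without siCCNL2 replicate 3 they were 8 higher and 4 lower (26.7%, beside 26.3%). In bulk RNA, fewer cells of a kind and less RNA per cell cannot be told apart.

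**Figure D1:**
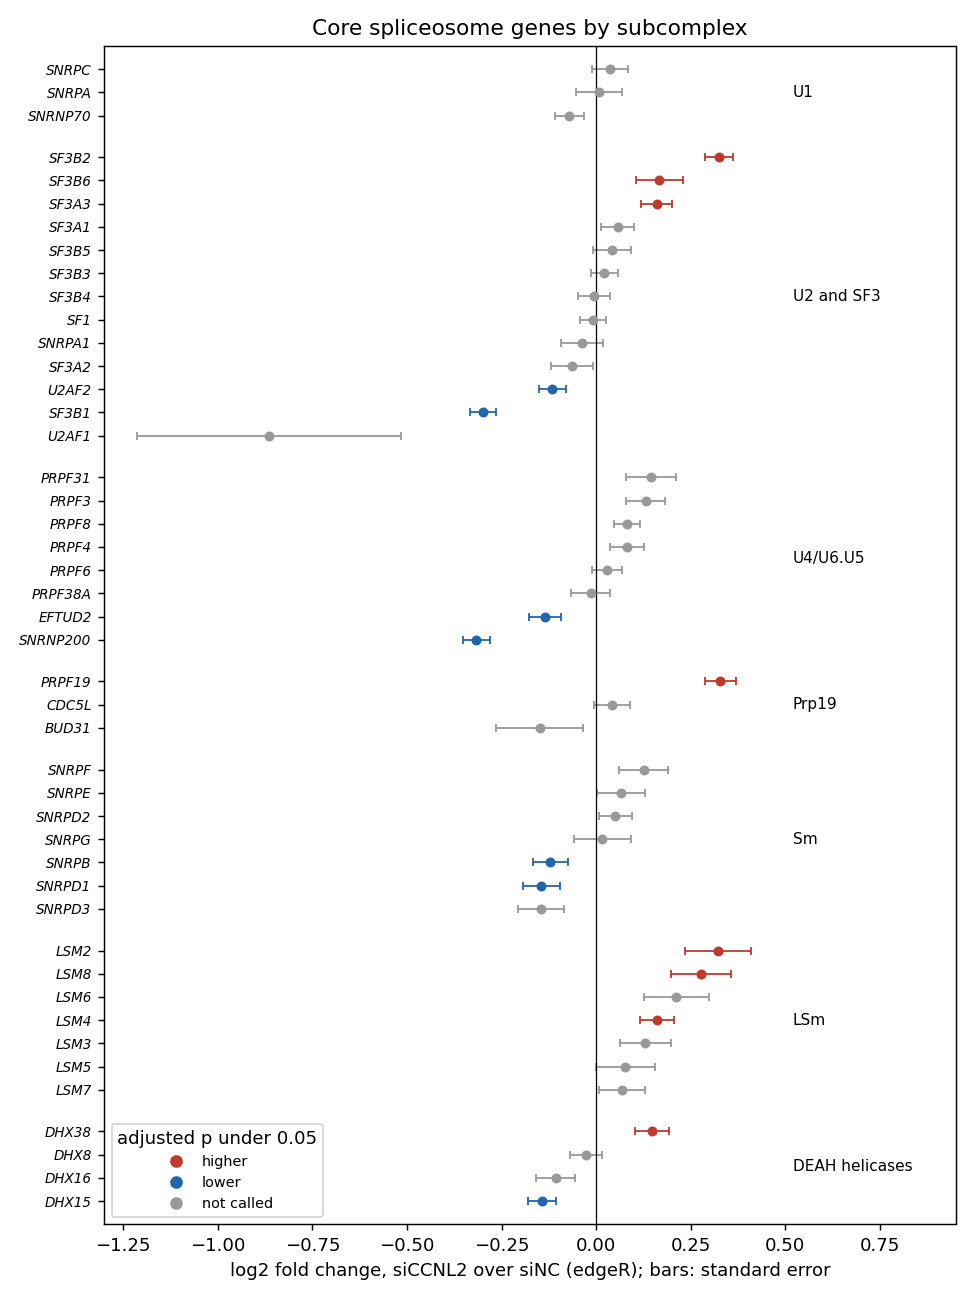
Log2 fold change of siCCNL2 over siNC (x axis) for the 45 genes, grouped by subcomplex and ordered by value, with bars for the standard error from edgeR; red points were called higher, blue points lower and grey points not called at an adjusted p under 0.05. Values of called genes lie between -0.32 and 0.33, the 7 LSm genes all lie right of 0, and U2AF1 at -0.86 has the widest error bar.

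The 2 genes with the smallest p in each direction were SNRNP200 and SF3B1 among those that fell, and SF3B2 and PRPF19 among those that rose. Their promoter windows, 250 bases before to 50 bases after the RefSeq start on GRCh38.p14, are shown because these 4 genes have the smallest p of the set. The RefSeq starts of SNRNP200, SF3B1 and SF3B2 lie inside the span that the deposited table gives for the gene, and that of PRPF19 is the end of its span. A window was found by symbol for 41 of the 45 genes, the exceptions being PRPF3, SNRPD1, LSM6 and SF3B3. Capitals mark matches, on either strand, to CCGGAAG (the core bound by ETS factors), GCATGCG (NRF1), ATGGCGG (YY1), CACGTG (E-box) and CCAAT, and the rest is in lower case.

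SNRNP200, chr2:96305497-96305796, minus strand: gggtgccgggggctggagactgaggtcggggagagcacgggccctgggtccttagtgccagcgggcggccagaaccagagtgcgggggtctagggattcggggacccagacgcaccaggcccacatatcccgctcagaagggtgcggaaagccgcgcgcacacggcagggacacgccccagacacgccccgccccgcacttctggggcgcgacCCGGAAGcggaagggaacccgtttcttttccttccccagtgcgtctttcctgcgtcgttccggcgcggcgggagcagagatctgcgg

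SF3B1, chr2:197434979-197435278, minus strand: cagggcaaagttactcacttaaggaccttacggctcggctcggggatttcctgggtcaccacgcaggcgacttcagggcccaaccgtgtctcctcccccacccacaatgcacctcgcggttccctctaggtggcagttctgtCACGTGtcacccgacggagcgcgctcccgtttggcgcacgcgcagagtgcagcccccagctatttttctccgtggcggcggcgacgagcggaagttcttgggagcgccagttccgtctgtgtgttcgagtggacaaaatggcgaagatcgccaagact

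SF3B2, chr11:66052114-66052413, plus strand: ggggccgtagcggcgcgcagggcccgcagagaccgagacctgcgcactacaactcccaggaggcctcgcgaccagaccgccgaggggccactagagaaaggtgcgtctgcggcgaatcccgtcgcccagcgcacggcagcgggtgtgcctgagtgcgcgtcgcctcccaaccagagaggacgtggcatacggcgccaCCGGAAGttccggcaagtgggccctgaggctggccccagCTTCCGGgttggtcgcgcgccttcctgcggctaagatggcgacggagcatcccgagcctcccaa

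PRPF19, chr11:60906536-60906835, minus strand: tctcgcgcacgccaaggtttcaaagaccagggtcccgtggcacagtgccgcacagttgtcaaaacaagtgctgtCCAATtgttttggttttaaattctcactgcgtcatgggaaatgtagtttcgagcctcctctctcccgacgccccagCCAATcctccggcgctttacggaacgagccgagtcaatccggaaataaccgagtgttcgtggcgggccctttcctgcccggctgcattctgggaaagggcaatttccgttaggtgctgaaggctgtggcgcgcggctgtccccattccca

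The ETS core CCGGAAG is present once in the SNRNP200 window and on both strands in the SF3B2 window, the E-box is in the SF3B1 window, and CCAAT is in the PRPF19 window at 2 places. Of the 41 windows, 21 (51.2%) held CCGGAAG, beside 2044 of the 10751 tested genes with a window and 10.7% of all 27305 genes with one. It was held by 5 of 8 windows of genes that rose, 3 of 6 of genes that fell and 13 of 27 of genes not called. By group it was in 8 of 12 windows of the U2 and SF3 group, 3 of 4 of DEAH helicases, 4 of 6 of Sm genes, 2 of 6 of LSm genes, 2 of 7 of tri-snRNP genes, and 1 of 3 each of U1 and Prp19-complex genes. ATGGCGG was in 8 windows (19.5%, beside 10.3% of tested genes), GCATGCG in 3 (7.3% and 6.4%), CACGTG in 2 (4.9% and 9.8%) and CCAAT in 16 (39.0% and 36.4%). GGGCGG, bound by SP factors and not capitalised above, was in 28 windows (68.3% and 69.3%), and TATAAA in 1 (2.4% and 5.7%). A match describes letters in these windows and does not show binding.

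Among the U1 proteins, none of 3 genes was called. SNRNP70, the U1-70K protein that contacts the stem-loop of U1 RNA, had 267, 273 and 288 CPM in siCCNL2 against 286, 291 and 292 CPM in siNC. The groups overlapped narrowly, through siCCNL2 replicate 3 (log2 fold change -0.07, SE 0.037, adjusted p = 0.158 by edgeR). SNRPA, the U1-A protein, and SNRPC, which stabilises U1 at the 5′ splice site, had log2 fold changes of 0.01 and 0.04. SNRPA overlaps C19orf54, a gene on the other strand that was called higher, and is uncertain. Summed over the 3 genes, the deposited TPM-like score, which is scaled by gene length, was 634 to 659 in siCCNL2 and 652 to 665 in siNC.

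Branch-site and 3′ splice-site factors included 2 subunits of SF3b that changed in opposite directions. Of 13 genes, 3 rose and 2 fell. The other 8 did not pass the test, and the median log2 fold change was -0.0047. SF3B1, the scaffold of SF3b that clamps the branch-site helix and is recurrently mutated in cancers, had 394, 375 and 387 CPM in siCCNL2 against 481, 477 and 464 CPM in siNC. All siCCNL2 libraries were below all siNC libraries, a fall of 18.7% (log2 fold change -0.30, SE 0.034, adjusted p = 2.17e-07). The gene lies at chr2:197388515-197435079 on the minus strand of GRCh38.

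SF3B2, another SF3b subunit, had 319.6, 323 and 322 CPM in siCCNL2 against 256, 248 and 266 CPM in siNC. Here all siCCNL2 libraries were above, a rise of 25.2% (log2 fold change 0.32, SE 0.037, adjusted p = 1.6e-07), and the gene lies at chr11:66050729-66069308 on the plus strand. The ratio of the SF3B2 to the SF3B1 score was 1.92, 2.04 and 1.96 in siCCNL2 and 1.26, 1.23 and 1.36 in siNC, 2 ranges that did not overlap. This ratio and the next were picked after the values were seen and carry no test. The score of SF3B1 relative to SF3B3, the large WD-repeat-like subunit that was not called (log2 fold change 0.02), was 1.41 to 1.47 in siCCNL2 and 1.71 to 1.84 in siNC.

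SF3A3, a subunit of SF3a, had 283, 309.9 and 284 CPM in siCCNL2 against 253, 258 and 273 CPM in siNC, and rose with no overlap (log2 fold change 0.16, SE 0.041, adjusted p = 0.00381). SF3B6, a subunit of SF3b, had 60.1, 68.2 and 57.3 CPM in siCCNL2 against 56.8, 55.1 and 53.0 CPM in siNC. Its groups did not overlap, by a margin of under 1 CPM, and it rose by 0.17 on the log2 scale (SE 0.062, adjusted p = 0.04). Its call was lost without siCCNL2 replicate 2 (0.10, adjusted p = 0.248), siNC replicate 2 (0.17, 0.094) or siNC replicate 3 (0.14, 0.123). SF3B6 was also not called with upper-quartile factors (adjusted p = 0.068), the DESeq2 Wald test (0.103), limma-voom (0.0508) or limma-trend on the log2 score (0.0677 with a pseudocount of 1). U2AF2, the large U2AF subunit that binds the polypyrimidine tract, had 269.8, 276 and 274 CPM in siCCNL2 against 289, 304 and 295 CPM in siNC. It fell by 0.12 on the log2 scale (SE 0.036, adjusted p = 0.0152), all siCCNL2 libraries below. Its adjusted p was 0.0526 without siCCNL2 replicate 1, 0.0553 without siCCNL2 replicate 3 and 0.0952 without siNC replicate 2. U2AF2 overlaps the barely expressed AC008735.2 on the opposite strand.

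The remaining genes of the group were not called. SF1, which first binds the branch point, had a log2 fold change of -0.01, the U2 protein gene SNRPA1 -0.04, SF3A1 0.06, SF3A2 -0.06, SF3B4 -0.0047 and SF3B5 0.04. SF3A2 overlaps PLEKHJ1 by 881 bases and SF3A1 overlaps CCDC157 by 285 bases, partners called higher and lower that lie on the other strand. Whether reads were counted by strand is not stated, so counts of overlapping genes are uncertain. Overlaps here and below are of whole gene spans from start to end, introns included. They do not show that counted reads are shared. SNRPA1 has a counted pseudogene, SNRPA1P1, with 522 reads over all libraries beside 5323 for SNRPA1.

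U2AF1, the small U2AF subunit that reads the AG at the 3′ splice site, had 76, 47 and 135 reads in siCCNL2 against 318, 96 and 74 reads in siNC. A single library, siNC replicate 1, stood apart and the groups overlapped (log2 fold change -0.86, SE 0.348, adjusted p = 0.059). The log2 fold change was 0.03 without siNC replicate 1 (adjusted p = 0.958), whereas U2AF1 was called lower without siCCNL2 replicate 3 (-1.35, 0.0215), siNC replicate 2 (-1.12, 0.0345) or siNC replicate 3 (-1.20, 0.00416), without a count filter (-0.87, 7.54e-08), and with the replicate number as a block (-0.79, 0.0402). GRCh38 carries a near-identical copy, U2AF1L5, which had 84, 175 and 66 reads in siCCNL2 and 71, 53 and 41 in siNC. Summed over both copies, reads were 160, 222 and 201 in siCCNL2 and 389, 149 and 115 in siNC (log2 fold change -0.09, SE 0.262, adjusted p = 0.828, a sum formed after the values were seen). U2AF1 counts are therefore uncertain.

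**Figure D2:**
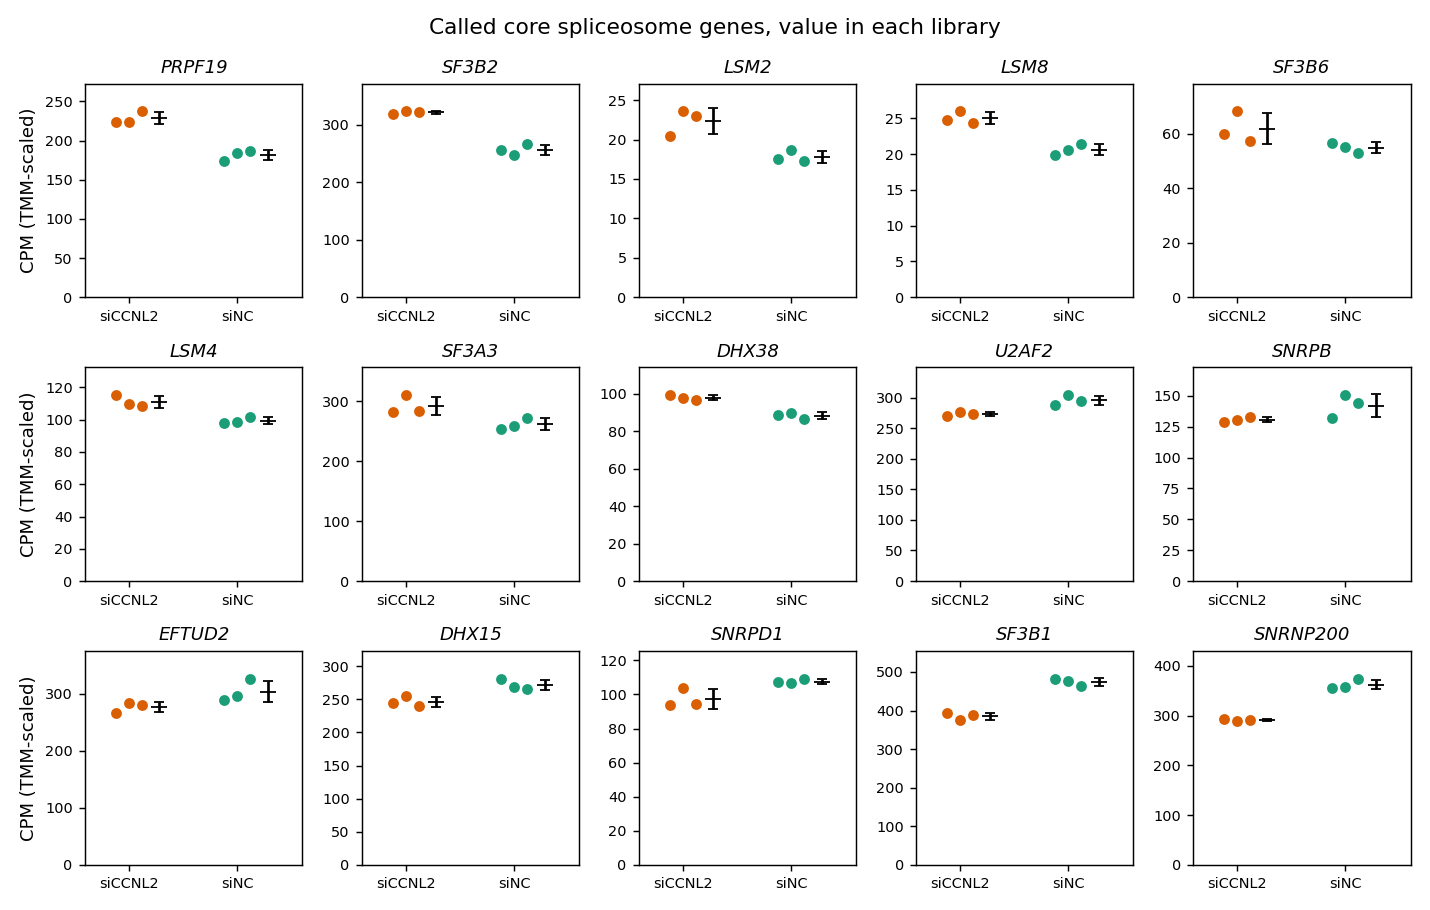
TMM-scaled CPM (y axis, from 0) of the 15 called genes in each siCCNL2 library (orange, left) and siNC library (green, right), with the mean and SD of 3 libraries beside them, ordered from the largest rise to the largest fall. The groups are separate for every gene but SNRPB, and SF3B1 and SNRNP200 are the only panels with a fall beyond 0.25 on the log2 scale.

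In the tri-snRNP, 2 of 8 genes fell, 0 rose and 6 were not called, and both that fell belong to U5. SNRNP200, the Brr2 helicase that unwinds U4 from U6, had 293, 289 and 291 CPM in siCCNL2 against 356, 359 and 373 CPM in siNC. It had the smallest p of the 45 genes, with a fall of 19.7% and no overlap (log2 fold change -0.32, SE 0.035, adjusted p = 1.21e-07), and lies at chr2:96274338-96321271 on the minus strand. EFTUD2, the U5 GTPase that governs Brr2 activity, had 266, 283 and 280.1 CPM in siCCNL2 against 289, 296 and 325 CPM in siNC (log2 fold change -0.13, SE 0.042, adjusted p = 0.0156). Its groups did not overlap, but its call was lost without siCCNL2 replicate 1 (-0.11, 0.0772) or siNC replicate 3 (-0.08, 0.144).

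PRPF8, the U5 protein at the heart of the catalytic core, was not called, with 736, 759 and 800.0 CPM in siCCNL2 against 735, 710.3 and 723 CPM in siNC (log2 fold change 0.08, SE 0.034, adjusted p = 0.0685). All siCCNL2 libraries were above, narrowly for siCCNL2 replicate 1, and without that library the gene was called higher (0.11, 0.0152). The ratio of the SNRNP200 to the PRPF8 score, again picked after the values were seen, was 0.411, 0.394 and 0.377 in siCCNL2 and 0.501, 0.522 and 0.535 in siNC. The U4/U6 proteins PRPF3 and PRPF4 had log2 fold changes of 0.13 (adjusted p = 0.0554) and 0.08, and the U4 protein gene PRPF31 0.15 (SE 0.067, adjusted p = 0.0989). PRPF3 was called higher without siCCNL2 replicate 1 (0.17, 0.021) or siNC replicate 1 (0.16, 0.043). The same held with a filter of 1 CPM in 3 libraries (0.13, 0.0495). PRPF6, which bridges U5 and U4/U6, stood at 0.03 and PRPF38A, needed for activation of the assembled complex, at -0.01. PRPF31 and PRPF38A overlap expressed genes on the opposite strand, TFPT (called lower) and TUT4 (not called), and are uncertain for that reason.

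Of the 3 genes of the Prp19 complex and its partners, 1 rose. PRPF19, the ubiquitin ligase that gives the complex its name, had 224, 224 and 237 CPM in siCCNL2 against 174, 184 and 187 CPM in siNC. The groups were well apart and the rise of 25.6% was the largest among called genes of the set (log2 fold change 0.33, SE 0.041, adjusted p = 6.88e-07). It lies at chr11:60890547-60906585 on the minus strand. The summed score of the 3 genes was 378, 370.3 and 387 in siCCNL2 against 309, 329.5 and 329 in siNC. That difference came from PRPF19, with a mean score of 298 in siCCNL2 against 239 in siNC. CDC5L had 41.2 against 40.3 and BUD31 38.7 against 43.0. CDC5L, a scaffold of the same complex, was not called (log2 fold change 0.04, SE 0.048), nor was BUD31 (-0.15, SE 0.115), the least counted of the 3 at 13.0 to 17.3 CPM. BUD31 overlaps PTCD1, not called, over 2878 bases on the opposite strand.

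Sm genes, whose 7 products sit in equal numbers in each ring, lay on both sides of 0. Of the 7, 0 rose, 2 fell and 5 were not called, with a median log2 fold change of 0.02. SNRPD1 had 93.7, 104 and 94.7 CPM in siCCNL2 against 107, 107 and 109 CPM in siNC and fell by 0.14 on the log2 scale (SE 0.048, adjusted p = 0.0224). Its groups did not overlap, yet the adjusted p ran from 0.0531 to 0.12 when siCCNL2 replicate 1, siCCNL2 replicate 3 or any siNC library was left out. SNRPB had 129, 130.3 and 133 CPM in siCCNL2 against 132, 150.5 and 144 CPM in siNC, and its groups overlapped through siNC replicate 1 (log2 fold change -0.12, SE 0.046, adjusted p = 0.0482). The SNRPB call was lost without any 1 of the libraries but siNC replicate 1 (adjusted p 0.0899 to 0.286), and also under limma-voom (0.052) and the DESeq2 Wald test (0.0816).

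SNRPD3 had 39.1, 42.2 and 40.5 CPM in siCCNL2 against 43.2, 45.8 and 45.6 CPM in siNC, the largest difference of the 7 at -0.15, with no overlap and no call (SE 0.060, adjusted p = 0.065). SNRPD3 was called lower with upper-quartile factors (-0.16, 0.0375). It was also called lower by limma-trend on the log2 score with a pseudocount of 1 (-0.151, 0.0435) or 0.1 (-0.155, 0.0435). SNRPF stood at 0.13, SNRPE at 0.07, SNRPD2 at 0.05 and SNRPG at 0.02, none of them called. The length-scaled score differed widely between these partners, and by more than CPM did for SNRPD2 and SNRPD3. Mean CPM was 119 in siCCNL2 and 115 in siNC for SNRPD2, and 40.6 and 44.8 for SNRPD3. The score was highest for SNRPD2 (451 ± 4.18 in siCCNL2 and 438 ± 15.3 in siNC, SD, n = 3 each) and lowest for SNRPD3 (35.7 ± 0.566 in siCCNL2 and 39.8 ± 1.17 in siNC). The SNRPD2 to SNRPD3 ratio of scores was 12.6 to 12.7 in siCCNL2 and 10.5 to 11.6 in siNC. This ratio too was picked after the values were seen and carries no test, and neither gene was called. SNRPE and SNRPG have 10 and 20 pseudogene names in the table, whose reads came to 4.46% and 7.85% of their own, so both are uncertain. SNRPD2 overlaps QPCTL, called lower, by 167 bases on the other strand.

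All 7 LSm genes had a log2 fold change above 0. Of the 7, 3 rose, 0 fell and 4 were not called, with log2 fold changes of 0.07 to 0.32 and a median of 0.16. Over all 15346 tested genes, 7716 had a log2 fold change above 0 and 17.2% were called higher. The LSm genes had the lowest median CPM of the 7 subcomplexes (29.9) and the largest median standard error (0.078), and the shared direction was not tested. Their summed score was 587, 577 and 565 in siCCNL2 against 521, 527 and 523 in siNC, with no overlap. LSM4 and LSM7 held the largest parts, with mean scores of 199 and 181 in siCCNL2 against 179 and 174 in siNC. Such separation was not particular to this group. The summed scores of the whole set, the Prp19 group and, narrowly, the U2 and SF3 group also lay above with no overlap. Those of the helicases lay below with no overlap. LSM2 had 20.5, 23.6 and 23.0 CPM in siCCNL2 against 17.5, 18.7 and 17.3 CPM in siNC (log2 fold change 0.32, SE 0.087, adjusted p = 0.00547). LSM4 had 115, 109 and 108 CPM in siCCNL2 against 97.9, 98.4 and 102 CPM in siNC (log2 fold change 0.16, SE 0.045, adjusted p = 0.0077). In both genes all siCCNL2 libraries were above all siNC libraries.

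LSM8, the subunit that sets the nuclear ring on U6 apart from the cytoplasmic decay ring with LSM1, had 24.8, 25.9 and 24.3 CPM in siCCNL2 against 19.8, 20.5 and 21.5 CPM in siNC. It rose with no overlap (log2 fold change 0.28, SE 0.079, adjusted p = 0.00787), but was not called by limma-trend when the log2 score with a pseudocount of 1 was used (0.23, 0.136). LSM6 also lay above in every library but was not called (0.21, SE 0.086, adjusted p = 0.0599), and was called without siCCNL2 replicate 1 (0.25, 0.0499). LSM6 was also called higher by limma-trend on the log2 score with a pseudocount of 1 (0.197, 0.0397) or 0.1 (0.204, 0.0383). LSM3 (0.13), LSM5 (0.08) and LSM7 (0.07) had overlapping groups, and LSM3 was called higher without siCCNL2 replicate 1 (0.21, 0.0227). Without that library the median of the 7 was 0.21. The score of LSM8 was 6.17 ± 0.131 in siCCNL2 and 5.12 ± 0.161 in siNC (SD, n = 3 each), and that of LSM4 was 199 ± 10.3 in siCCNL2 and 179 ± 2.39 in siNC. Before scaling by length, the counts of LSM8 (24.3 to 25.9 CPM in siCCNL2 and 19.8 to 21.5 CPM in siNC) were nearer to those of LSM4 (108 to 115 CPM in siCCNL2 and 97.9 to 102 CPM in siNC). LSM4 thus stood above LSM8 in CPM too. The further gap on the score scale rests on the gene lengths used, which are not given in the sources used here.

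**Figure D3:**
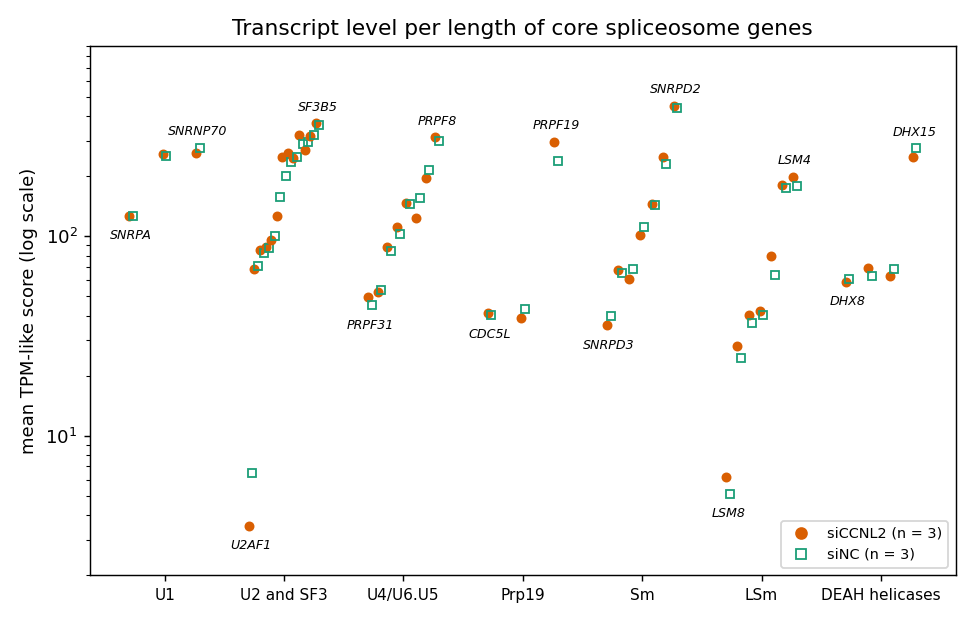
Mean deposited TPM-like score per gene (y axis, log scale, 3 libraries per group), with siCCNL2 as filled orange circles and siNC as open green squares, by subcomplex (x axis). Genes of a subcomplex are ordered by their siNC score and the lowest and highest are named; most pairs of symbols nearly coincide, while levels between genes run from those of U2AF1 and LSM8, the lowest, to SNRPD2, the highest.

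Of the 4 DEAH-box helicases, 1 rose, 1 fell and 2 were not called. DHX15, which takes spent spliceosomes apart, had 245, 254 and 239 CPM in siCCNL2 against 280.4, 269 and 266 CPM in siNC (log2 fold change -0.14, SE 0.038, adjusted p = 0.0046). The groups did not overlap, and the adjusted p was 0.0501 without siCCNL2 replicate 3. DHX38, the human Prp16 that remodels the complex before the second catalytic step, had 99.2, 97.7 and 96.8 CPM in siCCNL2 against 88.9, 89.9 and 86.3 CPM in siNC. It rose with no overlap (log2 fold change 0.15, SE 0.046, adjusted p = 0.0142), and it overlaps TXNL4B, not called, on the opposite strand over 819 bases. DHX8, which releases spliced messenger RNA, had a log2 fold change of -0.03, and DHX16, which acts before the first step, -0.11 (SE 0.052, adjusted p = 0.121) with all siCCNL2 libraries below. DHX8 overlaps ETV4 over 51777 bases of gene span on the opposite strand and is uncertain. DHX16 overlaps C6orf136, not called, over 92 bases on the opposite strand.

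A wider list of 93 spliceosome and snRNP genes outside the 45 was counted in the same fit. In all, 13 rose, 14 fell and 66 were not called, or 29.0% called, beside 33.6% of tested genes. Without siCCNL2 replicate 3 the counts were 11 and 9, while 26.3% of the genes then tested were called. Of 16 other U1 and U2 proteins, 2 rose and 2 fell. SUGP1, a partner of SF3B1, rose by 0.35 on the log2 scale. U2SURP (-0.16) and PUF60 (-0.10) fell, the U2SURP call being lost without siNC replicate 1 (adjusted p = 0.0783) and the PUF60 call without siCCNL2 replicate 2 or 3 or siNC replicate 2 or 3 (0.0603 to 0.174).

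Of 18 other tri-snRNP and B complex genes, 5 rose and 4 fell. WBP4, a B complex protein, had 36.4, 38.3 and 36.2 CPM in siCCNL2 against 20.8, 23.2 and 21.3 CPM in siNC, and with a rise of 69.7% it changed most of the 93 genes (log2 fold change 0.76, SE 0.072, adjusted p = 9.66e-09). CD2BP2, a U5 protein, rose by 0.36, while the U5 protein gene TXNL4A fell by 0.28 and SNU13, which binds U4, fell by 0.22 on the log2 scale. SNU13 overlaps C22orf46, called higher, on the opposite strand. Of 25 other Prp19-complex and catalytic-step genes, 1 rose and 5 fell. PLRG1, a core Prp19-complex subunit, rose by 0.47, at 88.0, 88.1 and 90.2 CPM in siCCNL2 against 64.3, 64.6 and 62.8 CPM in siNC. PRPF18, a second-step factor, fell by 0.40 on the log2 scale but overlaps FRMD4A, called lower, over 24740 bases. PPIE fell by 0.24 and was no longer called after omission of siCCNL2 replicate 2 or 3, or of siNC replicate 1 or 3 (adjusted p 0.0648 to 0.117).

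Of 12 minor spliceosome genes, 1 rose and 0 fell, the riser being PDCD7, a U11/U12 protein (log2 fold change 0.56, adjusted p = 5.89e-06). Of 14 snRNP assembly and import factors, 2 rose and 1 fell. GEMIN6 of the SMN complex rose by 0.39 and TGS1, which trimethylates the snRNA cap, by 0.16, while GEMIN2, also of the SMN complex, fell by 0.32 on the log2 scale. The TGS1 call was lost without siCCNL2 replicate 3 (adjusted p = 0.0707) or siNC replicate 1 (0.0556), and the GEMIN2 call without siCCNL2 replicate 1 (0.0876), siCCNL2 replicate 3 (0.055) or siNC replicate 1 (0.18). Of 8 exon junction complex genes, 2 rose, CASC3 (0.29) and RNPS1 (0.18), and 2 fell, PNN (-0.26) and RBM8A (-0.25). The RBM8A call was lost without any 1 of the libraries but siCCNL2 replicate 1 (adjusted p 0.0571 to 0.227).

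**Figure D4:**
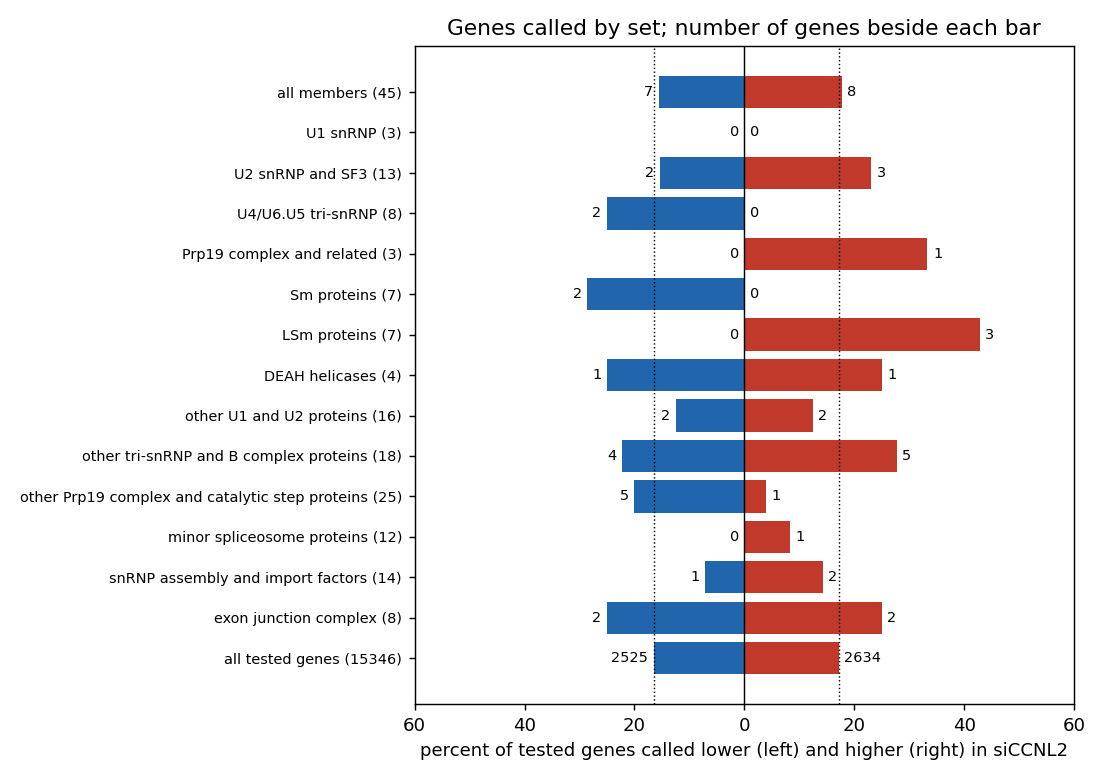
Percent of tested genes called lower (left, blue) and higher (right, red) in siCCNL2 for the 45 genes (labelled all members), their 7 subcomplexes, the 6 lists of other spliceosome genes and all tested genes, with the number of called genes beside each bar and the number tested in brackets. Dotted lines mark 16.5% lower and 17.2% higher over all tested genes; the 45 genes together lie close to both lines.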

How the data were processed

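RNA of 6 HEY libraries was sequenced. The authors deposited raw whole-number counts for each gene and a TPM-like score scaled by gene length and library, which sums to 1000000 over distinct names. Per the submitters' processing notes, fastp 0.23.0, HISAT2, HTSeq 2.0.1 and GRCh38 were used, with no role or order; annotation release and strand setting are not given in the sources used here. Groups came from the sample titles.

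Repeated names (62710 rows, 60835 names) were used once. Genes passing filterByExpr (15346, at least 99.76% of counts per library) were tested with edgeR 4.0.16 (R 4.3.3; TMM, glmQLFit, glmQLFTest, no covariate, Benjamini-Hochberg, called at adjusted p under 0.05) and the procedure was tested on simulated data. CPM values are TMM-scaled, SE is the absolute log2 fold change over the square root of F, and errors cover these libraries only.

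The 45 genes, the lists and the naming rule (values per library for the 3 smallest p and the largest change per subcomplex, up to 2 genes per direction for other lists) were chosen with earlier results of these data known. Alternatives used DESeq2 1.42.0, limma 3.58.1, other factors, filters and thresholds, a replicate block, and omission of each library. Alternatives for the 93 other genes and the U2AF1 sum were added after the data were seen. For 1 of the other U1 and U2 genes that rose, the result is not reported here.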

Additional observations from a re-analysis of the deposited data

How the results depend on the processing

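Over 17 alternatives, 7 of the 15 called genes (SF3A3, SF3B1, SF3B2, SNRNP200, PRPF19, LSM2 and LSM4) kept call and direction in all, and 24 of the 30 uncalled genes were never called. No called gene changed direction. At an adjusted p under 0.01, 6 of the 45 genes were called higher and 3 lower (9 of 45, beside 23.5% of all tested genes), and 11 and 9 of the other spliceosome genes. With upper-quartile factors, which shifted the median of all genes to -0.02, the median log2 fold change was 0.018 for the 45 genes, -0.010 for U1, -0.023 for U2 and SF3 and 0.037 for the tri-snRNP. Leaving out 1 library gave 7 to 12 genes called higher and 3 to 6 lower, and 11 to 16 and 9 to 12 of the other spliceosome genes, while 26.3% to 30.2% of all tested genes were called. The medians then ran from 0.03 to 0.04 (45 genes), -0.043 to 0.041 (U1), -0.0051 to 0.032 (U2 and SF3), 0.035 to 0.067 (tri-snRNP), 0.03 to 0.06 (Prp19 complex), -0.10 to 0.071 (Sm), 0.15 to 0.21 (LSm) and -0.08 to -0.05 (helicases), and CCNL2 from -0.49 to -0.41. The cause was not tested. Same-numbered libraries of the groups correlated at 0.0432, 0.023 and 0.0257 in their deviations and other pairs at -0.03 to 0.00484. Each library thus correlated best with its own number, a hint from the data and not the design. All 3 values were under 0.1 and the numbers were not taken as pairs. With the replicate number as a block, 8 genes were called higher and 8 lower (35.6%, beside 34.1% of all tested genes). U2AF1 was the added one. Precision was lowest for U2AF1 (SE 0.348) and BUD31 (SE 0.115), which have the fewest reads of the set.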
